A study of Mus musculus with 4 samples.

Results

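Regulatory T cells (Treg) of the mouse spleen were compared, by Nrp1 (neuropilin-1, a receptor for semaphorins) on their surface, for the RNA of the CD3 complex and of the first steps of T cell receptor (TCR) signalling. The 9 genes chosen were Cd3d, Cd3e, Cd3g, Cd247, Cd4, Cd5, Lck, Zap70 and Lat, and every probe set annotated to one of them alone was taken. That gave 14 probe sets for 8 genes, of 18193 genes with a probe set of their own. The array annotation used here lists none for Lck, so Lck was not analysed here. All 14 probe sets were above the limit on dim signals, percentile 50 of mean level.

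Nrp1-positive Treg (CD4+ Foxp3+ Nrp1+, 2 arrays) were set against Nrp1-negative Treg (CD4+ Foxp3+ Nrp1-, 2 arrays). All came from the spleen of Balb/c mice with a Foxp3 GFP reporter, by which living Treg can be sorted. The mice were 4 to 6 weeks old, except for Nrp1-negative replicate 1, labelled 4 to 8 weeks. That array also carries a source name and cell type that read Nrp+, and its group was taken from its title. No treatment is named. The labels do not tell whether a group's arrays stem from different mice or different sorting runs, so p-values measure the spread between arrays, which may be technical in part. Each replicate number holds 1 array of each group.

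The antigen-binding TCR chains have almost no cytoplasmic tail, so the complex signals through CD3 delta, epsilon and gamma and through the zeta chain, which Cd247 encodes. The kinase Lck, carried by the coreceptor CD4, phosphorylates tyrosine motifs in those tails. The kinase ZAP-70 docks there and phosphorylates the adaptor LAT, on which downstream enzymes assemble, while CD5 restrains the signal. Treg depend on this pathway for their development in the thymus and for their suppressive activity.

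Some facts of the arrays bear on every value. The authors had scaled replicate 2 arrays to a trimmed mean of 150.001 and replicate 1 arrays to 500.003, so all were brought here to one trimmed mean. Values below are these scaled intensities (linear signal, arbitrary units), and differences are on the log2(intensity + 18.3) scale. Gapdh control signal at the 3-prime end over that at the 5-prime end, a sign of RNA and labelling quality, was 0.711 and 0.763 on replicate 2 arrays against 1.54 and 1.74 on replicate 1 arrays, Nrp1-positive array first. The 6 myeloid marker genes summed to 11026 and 11998 on replicate 2 arrays, against 2342 and 1639 on replicate 1 arrays, in the same order. Nrp1 itself had 9344 and 7745 in Nrp1-positive replicates 1 and 2, against 339 and 1223 in Nrp1-negative replicates 1 and 2. Foxp3, the gene tagged by the reporter, had 2.16 and 19.9 in Nrp1-positive and 4.45 and 36.4 in Nrp1-negative cells, at percentile 18.7 of mean level and below the limit. The other 4 Treg marker genes listed, Il2ra, Ctla4, Ikzf2 and Tnfrsf18, lay at percentiles 94.2 to 99.1. Whether the Foxp3 probe set reads its transcript poorly was not tested. Xist, which coats the silenced X of female cells, had 83.2 and 13630 in Nrp1-positive replicates 1 and 2, against 4083 and 13058 in Nrp1-negative replicates 1 and 2. By this gene the share of female cells was unlike between arrays of a group, and between the groups in replicate 1.

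The 3 CD3 chains of the complex had nearly the same RNA signal in Nrp1-positive and Nrp1-negative Treg. Cd3d (CD3 delta) had 22115 and 20377 in Nrp1-positive replicates 1 and 2, against 23975 and 20454 in Nrp1-negative replicates 1 and 2. Cd3g (CD3 gamma) had 17742 and 16481 in Nrp1-positive cells, against 18277 and 15262 in Nrp1-negative cells. Cd3e (CD3 epsilon, which pairs with both of the others) had 7924 and 5243 in Nrp1-positive cells, against 8016 and 5988 in Nrp1-negative cells. The groups overlapped for all 3 genes, and the replicate number set apart their arrays more than Nrp1 did. The differences were −0.06 for Cd3d, 0.03 for Cd3g and −0.10 for Cd3e, with standard errors of 0.23, 0.22 and 0.29. Their 95% intervals reached from −0.64 to 0.51, from −0.53 to 0.59 and from −0.82 to 0.62 in the fit by group alone. With the replicate number in the model they were −0.34 to 0.22, −0.24 to 0.31 and −0.36 to 0.15. Changes within an interval cannot be told from none in that fit. In limma, the linear model used across all 22496 probe sets past the limit, none of the 3 passed in either fit. The lowest adjusted p in limma was 0.960, for Cd3e with the replicate number in the model. In bulk RNA, fewer cells of a type and less RNA per cell cannot be told apart.

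The zeta chain gene Cd247 was read by 4 probe sets, and 3 of them were lower in Nrp1-positive cells within both replicate numbers, none past the test. Probe set 1426396_at had 4705 and 5456 in Nrp1-positive replicates 1 and 2, against 6326 and 5976 in Nrp1-negative replicates. Both Nrp1-positive arrays lay below both Nrp1-negative arrays there, with differences of −0.43 in replicate 1 and −0.13 in replicate 2. Among all probe sets tested, 8.5% had both Nrp1-positive arrays below both others. Probe set 1420716_at had 640.3 and 585.8 against 784.2 and 631.2, with overlapping groups. Its difference was −0.19 with all arrays, and leaving out Nrp1-negative replicate 1 or 2 gave −0.042 or −0.35. The 1452539_a_at signals, 1453 and 2027 against 1551 and 2071, differed by −0.06 on average. Probe set 1426079_at, at percentile 53.6 and close to the limit, had 73.7 and 124 against 76.8 and 103, with differences of −0.05 and 0.23. The 4 readings of this gene therefore ranged from −0.28 to 0.09.

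The sorted coreceptor Cd4 had similar signals in both groups and unlike ones in the replicate numbers. Probe set 1419696_at had 2261 and 755 in Nrp1-positive replicates 1 and 2, against 2199 and 723 in Nrp1-negative replicates 1 and 2. Its difference was 0.04 in replicate 1 and 0.06 in replicate 2. The standard error was 0.70 without and 0.13 with the replicate number in the model, and in the second fit the 95% interval of the difference was −0.24 to 0.34. The other Cd4 probe set, 1427779_a_at, had 272 and 198 in Nrp1-positive cells, against 204 and 142 in Nrp1-negative cells. It was higher in Nrp1-positive cells by 0.38 and 0.43 within the replicate numbers, although the groups overlapped. Its standard error of 0.35, or 0.26 with the replicate number in the model, is near the size of that difference.

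The 3 probe sets of Zap70, the kinase that binds the phosphorylated CD3 and zeta tails, gave no common direction. Probe set 1422701_at had 3024 and 2155 in Nrp1-positive replicates 1 and 2, against 2218 and 3396 in Nrp1-negative replicates. Its difference was 0.44 in replicate 1 and −0.65 in replicate 2. Probe set 1440178_x_at, whose suffix marks probes that may also bind other transcripts, had 1202 and 895 in Nrp1-positive cells, against 1654 and 821 in Nrp1-negative cells. Its signs were the opposite of those, at −0.45 and 0.12. Probe set 1439749_at had 334 and 195 in Nrp1-positive cells, against 320 and 34.2 in Nrp1-negative cells. Its mean difference of 1.04 came from Nrp1-negative replicate 2 alone, being 0.06 in replicate 1 and 2.02 in replicate 2. Without that array it was −0.30, a value that mixes in the replicate difference of the Nrp1-positive arrays (−0.72).

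The adaptor gene Lat was lower and Cd5 higher in both Nrp1-positive arrays, by about 1.2-fold each. Lat had 11407 and 11275 in Nrp1-positive replicates 1 and 2, against 14551 and 12924 in Nrp1-negative replicates 1 and 2. Cd5 had 12990 and 12884 in Nrp1-positive cells, against 10551 and 10941 in Nrp1-negative cells. In neither gene did the groups overlap, and the Nrp1-positive arrays lay close together, with means of 11341 ± 93.4 for Lat and 12937 ± 74.95 for Cd5 (SD, n = 2), against 13737 ± 1150 and 10746 ± 276 in Nrp1-negative cells. Lat differed by −0.35 in replicate 1 and −0.20 in replicate 2 (mean −0.27, standard error 0.20). Cd5 differed by 0.30 and 0.24 (mean 0.27, standard error 0.20), and over arrays left out in turn it stayed between 0.24 and 0.29. In limma by group alone neither passed, but no probe set did (lowest adjusted p 0.999973). Nrp1 itself, 12.8-fold higher in Nrp1-positive cells, failed there too, so that fit cannot decide on Lat or Cd5. With the replicate number in the model, the 95% intervals were −0.54 to −0.01 for Lat and 0.01 to 0.53 for Cd5. Neither interval changes sign, but neither gene passed over all probe sets (limma adjusted p = 0.690 for both). If the array with conflicting labels is moved to the Nrp1-positive group, Lat differed by −0.069 and Cd5 by 0.14. Among all probe sets tested, 24.4% differed by as much as Lat and 25.2% by as much as Cd5, in either direction. Both Nrp1-positive arrays lay above both others in 11.5% of all probe sets.

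**Figure D1:**
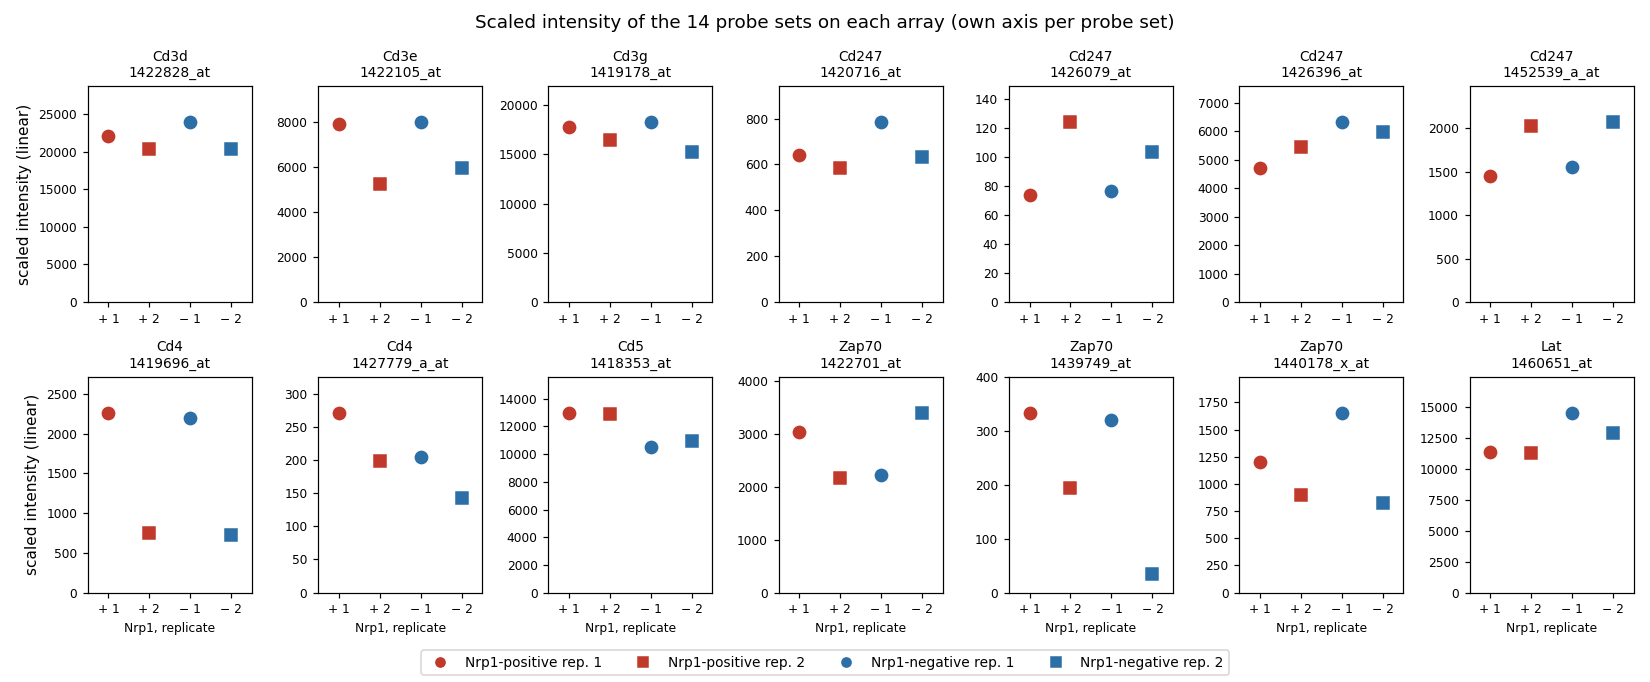
Scaled linear intensity of each of the 14 probe sets (1 panel each, own axis from 0) on Nrp1-positive replicates 1 and 2 (red, left) and Nrp1-negative replicates 1 and 2 (blue, right). Circles are replicate 1 and squares replicate 2. For Cd4 1419696_at the squares lie at 755 and 723, below the circles at 2261 and 2199, while for Cd5 both red points lie above both blue points.

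Over the whole set, the CD3 and proximal TCR genes showed no shared shift with Nrp1. Of the 14 probe sets, 6 were above and 8 below 0, and 10 had one sign in both replicate numbers, beside 51.8% of all probe sets tested. Without overlap of the groups, 1 was higher and 2 were lower, beside 11.5% and 8.5% of all. Their median difference was −0.06 and their median size 0.14, beside 0.01 and 0.14 over all probe sets tested. In limma 0 of 14 passed at an adjusted p of 0.05, none at an unadjusted p of 0.05, and 0% of all probe sets were called in either direction, with 233 at an unadjusted p below 0.05. With the replicate number as a further term, 0 of 14 passed as well, while 0.129% of all probe sets were called higher and 0.08% lower, Nrp1 and Ikzf2 among them. In that fit 4 of the 14 had an unadjusted p below 0.05, beside 6.87% of all probe sets, and without the mean-variance trend 0 of the 14 did, beside 1497 of all probe sets. The 4 were Cd247 1426396_at (limma adjusted p = 0.683), Cd5 (0.690), Lat (0.690) and Zap70 1439749_at (0.617).

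**Figure D2:**
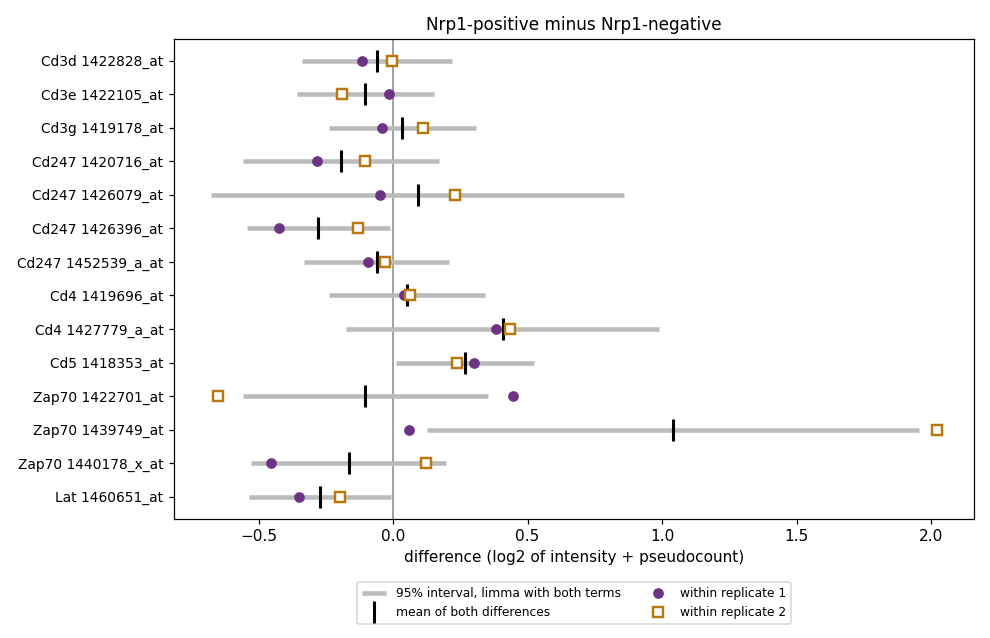
Nrp1-positive minus Nrp1-negative difference of each probe set on the log2(intensity + pseudocount) scale, within replicate 1 (filled circles) and within replicate 2 (open squares), with their mean (black tick) and the 95% interval from limma with the replicate number as a further term (grey). Cd5 lies right of 0 and Lat left of 0 in both replicate numbers, while Zap70 1422701_at lies at 0.44 and −0.65.

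Promoter sequences are shown for the 3 CD3 chains, whose groups overlapped, and for Cd5 and Lat, whose arrays separated in opposite directions without passing the test. They are the 250 bases before the RefSeq start (GRCm38.p6), 5′ to 3′ along the gene's strand, with motif matches in capitals. Cd3g (chr9:44980432-44980681, minus strand) and Cd3d (chr9:44981536-44981785, plus strand) are neighbours transcribed away from each other, with starts 1355 bases apart, and Cd3e (chr9:45009612-45009861, minus strand) starts 27825 bases beyond Cd3d. Cd5 is at chr19:10738975-10739224 and Lat at chr7:126369569-126369818, both on the minus strand.
Cd3g: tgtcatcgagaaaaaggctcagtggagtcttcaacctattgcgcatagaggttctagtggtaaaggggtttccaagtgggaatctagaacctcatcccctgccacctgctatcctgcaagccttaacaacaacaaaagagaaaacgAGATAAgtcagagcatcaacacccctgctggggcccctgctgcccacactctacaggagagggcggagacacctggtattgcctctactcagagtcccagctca
Cd3d: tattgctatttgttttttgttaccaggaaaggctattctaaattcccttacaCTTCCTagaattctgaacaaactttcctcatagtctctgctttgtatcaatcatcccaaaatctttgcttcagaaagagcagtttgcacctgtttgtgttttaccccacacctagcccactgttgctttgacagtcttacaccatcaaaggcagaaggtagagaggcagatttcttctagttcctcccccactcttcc
Cd3e: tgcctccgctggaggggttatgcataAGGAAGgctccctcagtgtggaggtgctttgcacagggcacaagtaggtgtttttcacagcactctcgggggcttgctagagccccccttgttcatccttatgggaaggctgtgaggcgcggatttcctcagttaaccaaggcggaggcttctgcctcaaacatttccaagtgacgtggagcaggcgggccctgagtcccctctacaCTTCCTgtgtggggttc
Cd5: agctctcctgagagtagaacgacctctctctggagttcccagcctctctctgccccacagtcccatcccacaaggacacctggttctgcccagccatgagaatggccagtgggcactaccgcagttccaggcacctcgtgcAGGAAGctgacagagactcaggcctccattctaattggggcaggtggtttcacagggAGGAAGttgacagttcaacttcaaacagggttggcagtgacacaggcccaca
Lat: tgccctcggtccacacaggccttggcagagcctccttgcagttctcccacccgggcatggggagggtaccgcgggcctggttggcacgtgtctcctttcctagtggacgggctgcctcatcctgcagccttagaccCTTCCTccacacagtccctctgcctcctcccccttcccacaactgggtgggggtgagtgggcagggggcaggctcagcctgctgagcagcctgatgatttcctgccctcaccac

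Both strands were searched for letters typical of factors active in T cells and of core promoters. The ETS-type AGGAAG was found in 4 of the 5 stretches (all but Cd3g) and in 29.5% of the 32851 promoter stretches in the table. The GATA-type AGATAA was found in Cd3g and in 9.99% of all. The RUNX-type TGTGGT, the E-box CAGCTG and the TATA-type TATAAA were in none of the 5 and in 14%, 13% and 12.4% of all. Cd3e and Cd5 held AGGAAG at 2 places each. A match describes letters in these windows and shows no binding.

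The replicate numbers differed more than the sorted groups did, with 5078 probe sets called over the whole table, 22.6% of those tested. Of the 14 member probe sets 5 were called, and Cd4 had the lowest adjusted p. On 1419696_at Cd4 averaged 739 ± 23.0 on replicate 2 arrays and 2230 ± 44.1 on replicate 1 arrays (SD, n = 2 each), a difference of −1.57 (2.97-fold lower, standard error 0.13, limma adjusted p = 4.5e-05 with the group in the model). The Nrp1-positive arrays differed by −1.56 and the Nrp1-negative arrays by −1.58. Among all probe sets tested, 2.73% differed by as much between the replicate numbers. The second Cd4 probe set differed by −0.45 and did not pass (limma adjusted p = 0.251).

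Of the 3 CD3 chains, all with differences below 0 between the replicate numbers, Cd3e was the one called. Differences between the chains were not tested. Cd3e was lower in replicate 2, at 5616 ± 526 against 7970 ± 65.7 on replicate 1 arrays, a difference of −0.51 (standard error 0.11, limma adjusted p = 0.0110). Fits with 1 array left out lack the group term and keep 1 array of 1 replicate number, so only sizes are given from them here. In them the Cd3e difference ranged from −0.60 to −0.41. With all arrays but no mean-variance trend Cd3e did not pass (limma adjusted p = 0.133). The neighbouring genes Cd3d and Cd3g, whose promoters are printed above, differed by −0.17 and −0.18 and did not pass (limma adjusted p = 0.353 and 0.315). Both turned to 0.18 and 0.10 when the arrays were also quantile normalised, so their direction depends on the scaling. For Cd247, 1452539_a_at was higher in replicate 2, at 2049 ± 31.2 against 1502 ± 69.2 (difference 0.44, standard error 0.12, limma adjusted p = 0.0258). In the fits with 1 array left out this difference ranged from 0.40 to 0.49. With all arrays but no mean-variance trend it did not pass (limma adjusted p = 0.153). The other 3 Cd247 probe sets did not pass, with differences of −0.21, 0.07 and 0.49.

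Downstream of the receptor, 2 of the 3 Zap70 probe sets were lower in replicate 2 and Lat and Cd5 did not pass. Zap70 1440178_x_at averaged 858 ± 52.6 on replicate 2 arrays and 1428 ± 320 on replicate 1 arrays, a difference of −0.71 (limma adjusted p = 0.0119). With 1 array left out, again without the group term, it ranged from −0.93 to −0.48. With all arrays but no mean-variance trend it did not pass (limma adjusted p = 0.121). Zap70 1439749_at averaged 115 ± 114 and 327 ± 10.01 on the same arrays, a difference of −1.71 (adjusted p = 0.0149 in limma) that was −0.72 between the Nrp1-positive arrays and −2.69 between the Nrp1-negative arrays. Fits with 1 array left out, which lack the group term, gave −2.72 to −0.69, the smallest without Nrp1-negative replicate 2. With all arrays but no group term it did not pass (limma adjusted p = 0.0612). Zap70 1422701_at moved by −0.49 between the Nrp1-positive arrays and by 0.61 between the Nrp1-negative arrays, a mean of 0.06. Cd5 differed by 0.02 and Lat by −0.09, with 95% intervals of −0.24 to 0.28 and −0.36 to 0.17.

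**Figure D3:**
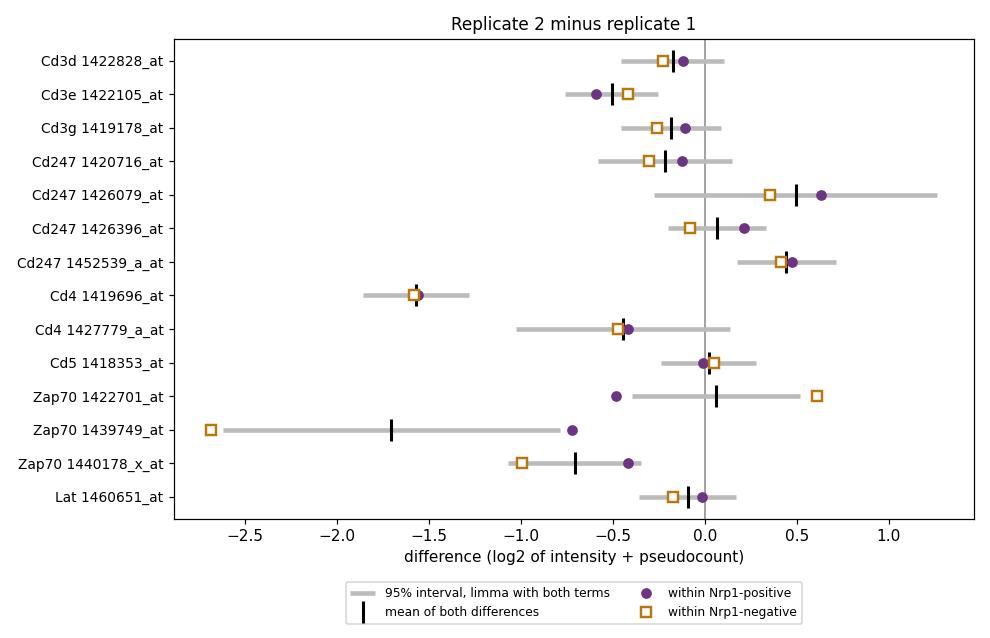
Replicate 2 minus replicate 1 difference of each probe set on the log2(intensity + pseudocount) scale, within Nrp1-positive cells (filled circles) and within Nrp1-negative cells (open squares), with their mean (black tick) and the 95% interval from limma with the group as a further term (grey). Cd4 1419696_at lies near −1.57 in both groups, while Cd5 and Lat lie near 0.

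In all, 1 of 14 probe sets rose and 4 fell in replicate 2, and 9 did not pass, beside 11.2% of all probe sets called higher and 11.4% lower, 22.6% in all. Both replicate 2 arrays lay above both replicate 1 arrays in 2 of the 14 and below them in 8, beside 29.8% and 32.9% of all. The median size of the difference was 0.33, beside 0.32 over all probe sets. The 6 myeloid markers were all called higher in replicate 2, Lyz2 (lysozyme) by 2.71. So were 3 of 4 tested genes from the list for natural killer cells, Tyrobp by 2.50. The remaining gene tested from that list, Ncr1, differed by 0.21 and did not pass (limma adjusted p = 0.696). Whether the signal of those 3 genes came from natural killer cells or from other cells was not tested. The called markers, and the Gapdh ratio and Xist signal given above, move with the replicate number. Their part in the Cd4, Cd3e, Cd247 and Zap70 differences was not tested. Of the 8 B cell markers 7 had a probe set, and these summed to 917 and 861 in replicate 2 against 597 and 534 in replicate 1, with 0 of 3 tested genes called. Cd8a had 84.4 and 72.3 in Nrp1-positive against 40.2 and 19.4 in Nrp1-negative cells, at percentile 45.6 and below the limit.

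**Figure D4:**
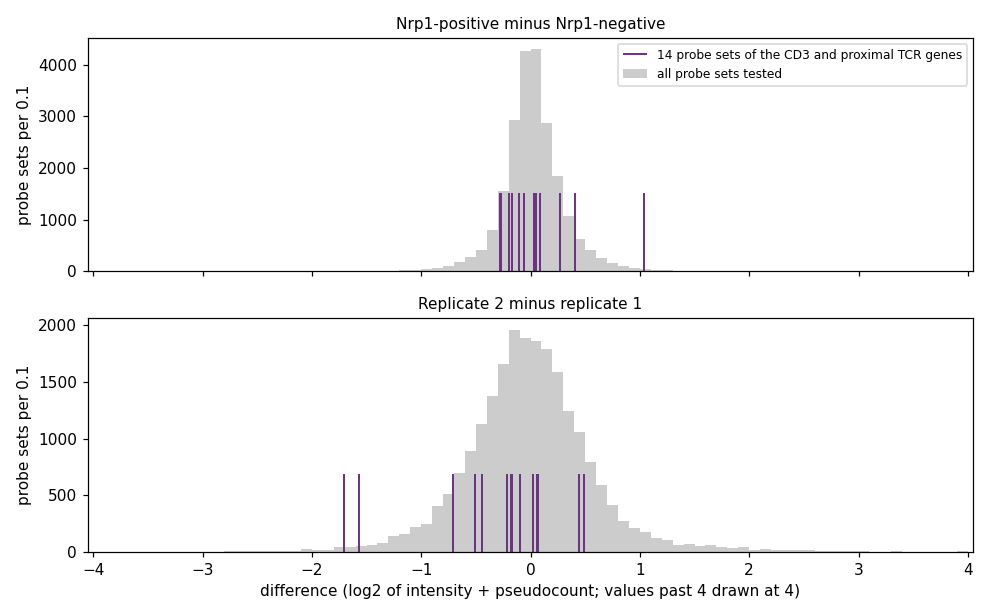
Number of probe sets (grey bars, 0.1 wide) by difference on the log2(intensity + pseudocount) scale for Nrp1-positive minus Nrp1-negative (top) and replicate 2 minus replicate 1 (bottom), with the 14 probe sets of the CD3 and proximal TCR genes as vertical lines. The lines spread with the grey bars in both panels, at a median of −0.06 above and −0.18 below.

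The rest of the pathway, represented by 1 probe set a gene, likewise held no gene that passed between Nrp1-positive and Nrp1-negative cells, with or without the replicate number in the model. Among adaptors and enzymes that act beside or after LAT, 19 of 21 listed genes were tested, and 17 of the 19 differences were below 0, beside 47.4% of all probe sets. Their median was −0.11, and 7 of the 19 had both Nrp1-positive arrays below both others, beside 8.5% of all probe sets. The largest were Themis (−0.53), a TCR signalling protein of developing thymocytes, Grap2 (−0.48), which links LAT to SLP-76, and Fyb (−0.38), an adaptor for integrin activation. Themis had 674 and 614 in Nrp1-positive replicates 1 and 2, against 942 and 935 in Nrp1-negative replicates 1 and 2 (limma adjusted p = 0.351 with the replicate number in the model). Among 19 tested negative regulators, 12 differences were above and 7 below 0, at a median of 0.05, and the largest were 0.32 for the docking protein gene Dok2, 0.29 for Ubash3b, −0.27 for Pag1, which holds the kinase Csk at the membrane, and −0.26 for the ubiquitin ligase gene Cblb. Among 7 tested coreceptor and other surface genes, the median was 0.12, with Cd2 (an adhesion receptor) at 0.31, Cd8b1 (a chain of the CD8 coreceptor) at 0.22, Cd48 (a ligand of CD2) at 0.20 and the costimulatory receptor gene Cd28 at −0.18.

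Between the replicate numbers some of these pathway genes were called. Prkcq (protein kinase C theta) had 5034 and 5394 on Nrp1-positive and Nrp1-negative arrays of replicate 2, against 8693 and 9028 in replicate 1, a difference of −0.76 (limma adjusted p = 0.00124). Grap2 differed by −0.98, Grb2 by −0.52 and Plcg1, the phospholipase recruited by LAT, by −0.48, and these 4 were the called genes among 19 adaptors and enzymes, all lower, beside 11.4% of all probe sets called lower. Among the 19 genes tested from the list of negative regulators, 1 was called higher and 5 lower, beside 11.2% and 11.4% of all probe sets. Sla, an adaptor that promotes TCR turnover, was higher by 0.90. Trat1 at −0.87, Sit1 at −0.73 and Lax1 at −0.63 were the largest of those called lower. Whether Trat1 acts as a negative regulator was not tested here. Among the surface genes Cd8b1 (0.81) and Cd48 (0.59) were higher and Ptprc (CD45, the phosphatase that activates Lck) was lower, by −0.59. These were 3 called of 7 tested, beside 22.6% of all probe sets called in either direction.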

How the data were processed

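The arrays measured RNA extracted with Trizol and labelled with biotin by the standard Affymetrix procedure, per the labels' protocols. MAS5 is named in the submitters' processing notes, and the values deposited by the authors are linear probe set intensities. Its settings are not given in the sources used, no detection call was used, and the number of arrays limits the precision.

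From the values, trimmed means (2% left out at each end) were equal within a replicate number and differed 3.33-fold between them. Arrays were scaled to the higher one, and log2(intensity + 18.3) was analysed, the pseudocount being 0.25 of the mean array median, so folds of dim probe sets are understated. Of 45101 probe sets, 64 controls and those under percentile 50 of mean level were left out, and 22496 were tested. Gene names came from the platform annotation. Differences were tested with limma 3.58.1 in R 4.3.3 (empirical Bayes with mean-variance trend, two-sided, Benjamini-Hochberg over all probe sets tested), by group alone, and for replicate numbers with the group as a further term. The code was tested on simulated data. The interaction of group and replicate number could not be fitted with 4 arrays. The members, the other gene lists and the tests were chosen with earlier results of these data known. All probe sets of the members were described, and of the other lists up to 4 genes with the largest difference were named. Cell marker lists with no tested gene (erythroid, gamma-delta T) had summed signals of at most 94.1 on any array. The list for plasmacytoid dendritic cells had 396 and 393 on replicate 2 against 1260 and 1315 on replicate 1 arrays. In it Bst2 had 198 and 172 on replicate 2 against 995 and 1097 on replicate 1 arrays. Tcf4 differed by 0.13 between the replicate numbers, and Siglech was below the limit. Alternatives were quantile normalisation, other pseudocounts and filters, no trend, the replicate number as a block, and no group term for replicate numbers. Others were arrays left out, with only the tested term in the model, and 1 array moved to the other group. Promoter sequences are from RefSeq, with an entry shown for 5 members. Drawings used matplotlib 3.10.9.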

Additional observations from a re-analysis of the deposited data

Results flagged for a closer look

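Zap70 1422701_at was marked because its difference between Nrp1-positive and Nrp1-negative cells was 0.44 in replicate 1 and −0.65 in replicate 2, opposite directions of a size above 0.20, the median size within a replicate number. The difference between the replicate numbers was not tested, and 13.1% of all 22496 probe sets met the same condition.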

How the results depend on the processing

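Between Nrp1-positive and Nrp1-negative cells, 0 member probe sets passed in limma under any alternative run. Over all probe sets 0 were called, against 47 with the replicate block, 138 with that and quantile normalisation, 0 with the block but no mean-variance trend, and 0 to 3 over arrays left out, where the 3 came without Nrp1-negative replicate 2. Deviations of same-numbered arrays from their group means correlated at 0.69 across probe sets, which are not independent, and 2 pairs do not show that the numbers pair samples. When Nrp1-negative replicate 1 was moved to the Nrp1-positive group, Cd3d was 0.11, Cd3e 0.21, Cd247 1420716_at 0.074, Cd247 1426079_at −0.18 and Zap70 1440178_x_at 0.55, each of opposite sign. Over arrays left out, which mixes replicate number with group, uncalled differences changed sign: Cd3d ranged from −0.18 to 0.054, Cd3e from −0.40 to 0.19, Cd3g from −0.10 to 0.16, Cd247 1426079_at from −0.23 to 0.41, Cd247 1452539_a_at from −0.30 to 0.18, Cd4 1419696_at from −0.74 to 0.84, and Zap70 1422701_at from −0.41 to 0.20, 1439749_at from −0.30 to 2.38 and 1440178_x_at from −0.66 to 0.33. Cd247 1420716_at ranged from −0.35 to −0.042. Lat, Cd5, Cd247 1426396_at and Cd4 1427779_a_at kept their sign under all of these, but not their size: with Nrp1-negative replicate 1 moved they were −0.069, 0.14, −0.13 and 0.59, and over arrays left out −0.36 to −0.19, 0.24 to 0.29, −0.38 to −0.17 and 0.17 to 0.64.

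Between replicate numbers, 5078 of all and 5 of the member probe sets were called, against 820 and 1 (Cd4 1419696_at) without the mean-variance trend. Without a filter 4 members were called, as Cd247 1452539_a_at was lost (adjusted p = 0.0536 in limma), and without the group term 4, as Zap70 1439749_at was lost (0.0612). A filter at percentile 75 left 3207 calls among 11222 tested. Over arrays left out, 2290 to 4145 of all and 2 to 3 of the members were called. With quantile normalisation Cd3d was 0.18, Cd3g 0.10 and Lat 0.064, of opposite sign; the cause was not tested. Uncalled differences that changed sign over arrays left out were Cd247 1426396_at (−0.15 to 0.28), Cd5 (−0.13 to 0.17), Zap70 1422701_at (−0.26 to 0.39) and Lat (−0.27 to 0.082).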
